A study of Homo sapiens with 4 samples.

Results

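The immunoproteasome and the MHC class I peptide-loading machinery were followed through 9 genes, PSMB8, PSMB9, PSMB10, PSME1, PSME2, TAP1, TAP2, TAPBP and B2M, in prostate cancer cells of a human line spelled DU154 in the labels. Every probe that the platform annotation gives to these symbols was taken, which made 18 of 43893 probes with values, and 17 of the 18 were among the 16950 probes detected above background (a detection p-value under 0.01 on 2 or more arrays). One group held 2 arrays of cells labelled mH2A1.2_KO, described by the submitters as depleted of mH2A1.2 (1 of the splice products of the macroH2A1 histone variant gene), and the other held 2 arrays of wild type cells of the same line. The sources used here do not give how the depletion was made, whether the line is 1 clone or whether replicates were separate cultures. The p-values therefore cover the spread among these arrays alone, and that spread may be technical. RNA was read on single-colour bead arrays, and values are the authors' normalized log2 signals, quantile-normalized across the 4 arrays. The comparison asks which genes are regulated differently once mH2A1.2 is depleted.

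The 2 deposited tables disagree on 2 arrays. In the header of the raw table, wild type replicate 2 is the array whose values follow the normalized column of mH2A1.2_KO replicate 1 (correlation 0.998 over the 7303 probes that averaged above 8.5 on the log2 scale), and the reverse. Groups here follow the normalized columns, and the results on the 9 genes are also given for mH2A1.2_KO replicate 2 minus wild type replicate 1, the undisputed pair of arrays. That pair sets an array of replicate 2 against an array of replicate 1, so any gap between the replicate numbers enters its differences. MACROH2A1, the gene of the depleted variant, lay lower in mH2A1.2_KO by the normalized columns on 2 of its 3 detected probes, with log2 differences of -1.07 ± 0.16 and -1.02 ± 0.17 (SE, 2 arrays per group), and higher on the third, 0.62 ± 0.24. None of these passed limma's test over all detected probes (adjusted p = 0.246, 0.271 and 0.626). The probes at -1.02 and 0.62 are annotated to the same transcript, and the brightest, at -1.07, to another. Which splice product each probe reads was not tested. The brightest MACROH2A1 probe measured 11.97 and 11.83 in mH2A1.2_KO, against 13.02 and 12.91 in wild type. Under the raw header's naming the arrays at 11.97 and 12.91 exchange groups, and the groups then overlap on this probe. Which naming is right was not tested. Between 16727 and 18377 probes were detected per array, and the number of arrays limits the precision. All 5 epithelial markers (KRT8, KRT18, KRT19, EPCAM and CDH1) were detected, with summed linear signals of 10861 to 12114 in mH2A1.2_KO and 5399 to 5420 in wild type. The luminal prostate markers KLK3, KLK2 and TMPRSS2 were not among the detected probes. Of 10 leukocyte and antigen-presenting cell markers 3 were detected, CD14, CD68 and CD86, with summed linear signals of 1675 to 1695 in mH2A1.2_KO and 1318 to 1433 in wild type, while PTPRC, CD3E, MS4A1 and LYZ were not above background. The part of these marker differences in the results was not tested. Among the detected markers, CD86 was above background on the wild type arrays only. Fewer cells expressing a marker and less RNA per cell cannot be told apart in such bulk samples of a cell line.

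MHC class I molecules show the cell's own peptides to cytotoxic T cells. The proteasome cuts proteins into those peptides. Interferon gamma makes cells exchange its constitutive catalytic subunits PSMB5, PSMB6 and PSMB7 for PSMB8, PSMB9 and PSMB10, which gives the immunoproteasome. PSME1 and PSME2 form the PA28 cap that opens the proteasome core. TAP1 and TAP2 form the transporter that carries peptides into the endoplasmic reticulum, where TAPBP (tapasin) bridges it to class I molecules made of a heavy chain and the light chain B2M. TAP2, PSMB8, TAP1 and PSMB9 lie side by side within 38021 bases of chromosome 6 in the MHC region (GRCh38.p14), and the starts of TAP1 and PSMB9 face away from each other with 487 bases between them. PSMB8-AS1, a gene annotated from base 32844086 to base 32846500 of chromosome 6, overlaps the start of PSMB8, and the sources used here do not place the probes relative to it.

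The interferon-stimulated response element, the site that interferon regulatory factors bind, is built on a repeat searched here as GAAA, any 2 bases and GAAA again, on both strands. In RefSeq promoter windows (GRCh38.p14, 250 bases before to 50 bases after an annotated start) these letters stood in at least 1 window of 8 of the 9 genes, and in 4.38% of the 27305 genes with a window (3.57% of 35116 windows). The stretches that hold them are shown because they are a feature the genes share. Each is written 5′ to 3′ on the gene's own strand, with the matching letters in capitals and 10 bases on either side.
PSMB8, chr6:32844032-32844061, minus strand: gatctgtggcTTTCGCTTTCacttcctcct
PSMB10, chr16:67936852-67936881, minus strand: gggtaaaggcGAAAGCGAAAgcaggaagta
PSME1, chr14:24136189-24136218, plus strand: gccctaccgcTTTCGCTTTCccttcgcggt
PSME2, chr14:24146619-24146648, minus strand: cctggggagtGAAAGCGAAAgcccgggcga
TAP1, chr6:32853813-32853848, minus strand: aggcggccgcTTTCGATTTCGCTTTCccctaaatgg
TAP2, chr6:32838778-32838807, minus strand: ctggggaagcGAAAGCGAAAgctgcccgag
TAPBP, chr6:33314073-33314108, minus strand: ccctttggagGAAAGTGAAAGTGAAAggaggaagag
B2M, chr15:44711363-44711398, plus strand: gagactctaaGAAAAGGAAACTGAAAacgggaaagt

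The same 10 letters, GAAAGCGAAA, stood in the stretches of PSMB10, PSME2 and TAP2 and, read on the other strand, in those of PSMB8, PSME1 and TAP1. TAP1, TAPBP and B2M each held 2 overlapping matches. The PSMB9 window held none of these letters, and the nearest match, that of TAP1, ended 353 bases before the PSMB9 start. PSMB8 has 2 annotated starts, and the letters stood in the window of the second one, from base -4 to base 6 around it. The interferon gamma activation site, searched as TTCNNNGAA, stood in windows of PSMB8 and TAP1 and in 9.38% of all genes with a window. The kappa B letters, GGGAC followed by TTTCC, searched on both strands, stood in windows of TAP1 and B2M and in 0.227% of all genes. A match describes the letters and is not a bound site. PSMB5, the constitutive partner of PSMB8, had 2 windows, with no GAAA repeat and with 2 matches to the interferon gamma activation site in the second, while PSMB6 and PSMB7 have no entry in the promoter table.

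**Figure D1:**
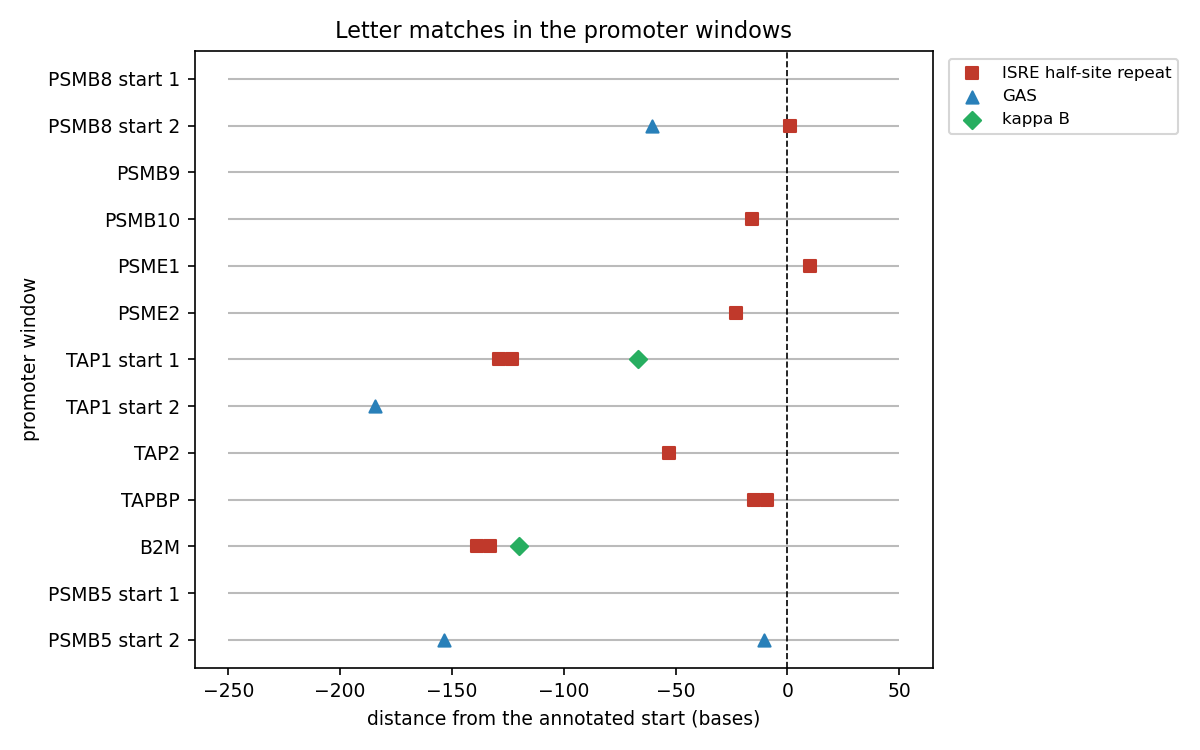
Positions of the searched letters in the promoter windows of the 9 genes and PSMB5, with the distance from the annotated start in bases on the horizontal axis and 1 line per window. Red squares are the GAAA repeat, blue triangles the interferon gamma activation site and green diamonds the kappa B letters, and 8 of the 11 windows of the 9 genes carry a red square.

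Of the interferon-inducible catalytic subunits, PSMB8 and PSMB9 were higher on both mH2A1.2_KO arrays by close to 2-fold, and PSMB10 was not separated between the groups. PSMB8, which replaces PSMB5 and carries a chymotrypsin-like activity, was read by 4 detected probes, all with arrays that did not overlap. Its brightest probe (ILMN_2390299) measured 10.38 and 10.53 on the log2 scale in mH2A1.2_KO, against 9.49 and 9.43 in wild type. Both mH2A1.2_KO arrays lay above both wild type arrays by more than the gap within either group, and the difference was 0.996 ± 0.16 or 1.99-fold (limma adjusted p = 0.263 over all detected probes). Only 0.572% of detected probes had a difference as high as that of PSMB8.

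The PSMB8 probes are annotated to 2 transcripts. The brightest and the dimmest belong to one, the other 2 (ILMN_1747195 and ILMN_1767006) to the second. ILMN_1747195 measured 9.59 and 9.77 in mH2A1.2_KO, against 8.41 and 8.70 in wild type, a difference of 1.12 ± 0.18 (adjusted p = 0.263 in limma). ILMN_1767006 measured 8.66 and 8.75 in mH2A1.2_KO, against 7.48 and 8.03 in wild type, a difference of 0.95 ± 0.22 (adjusted p = 0.397 in limma). The brighter probes annotated to either transcript thus differed by like amounts. Probes were not placed by sequence, so whether each reads only its annotated transcript is not known. The dimmest PSMB8 probe, above background on 3 of the 4 arrays, measured 6.99 and 6.85 in mH2A1.2_KO, against 6.75 and 6.47 in wild type, a difference of 0.31 ± 0.18. After background correction of the raw signals (limma's neqc) that dim probe differed by 0.97, and the 3 brighter ones by 1.05 to 1.29.

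PSMB9, which replaces PSMB6, followed PSMB8. Its brighter probe (ILMN_2376108) measured 9.50 and 9.22 in mH2A1.2_KO, against 8.50 and 8.25 in wild type, a difference of 0.98 ± 0.18 or 1.97-fold (limma adjusted p = 0.326). Its second probe measured 7.32 and 7.12 in mH2A1.2_KO, against 6.99 and 6.78 in wild type, a difference of 0.33 ± 0.17, or 0.75 with neqc. Arrays of PSMB9 did not overlap on either probe. PSMB10, which replaces PSMB7 and carries a trypsin-like activity, measured 10.98 and 11.34 in mH2A1.2_KO, against 10.71 and 11.48 in wild type. The wild type arrays of PSMB10 enclosed both mH2A1.2_KO arrays, and the difference was 0.063 ± 0.28 (limma adjusted p = 0.993). Whether PSMB10 differs from PSMB8 and PSMB9 in its response was not tested.

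In the undisputed pair of arrays, the brightest probe differed by 1.04 for PSMB8, 0.72 for PSMB9 and 0.63 for PSMB10. Without wild type replicate 2 the probes ILMN_1747195 and ILMN_1767006 of PSMB8 passed the test, with differences of 1.27 and 1.22 (limma adjusted p = 0.0245 and 0.0247, where the lone wild type array is assumed to vary like the others). PSMB10 turned to -0.32 without wild type replicate 1 and to -0.12 without mH2A1.2_KO replicate 2. With neqc on the raw signals and arrays named as in the raw header, the brightest probe differed by 0.067 for PSMB8. For PSMB9 it differed by -0.29 and for PSMB10 by 0.59. There both the grouping and the normalization differ from those used above.

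**Figure D2:**
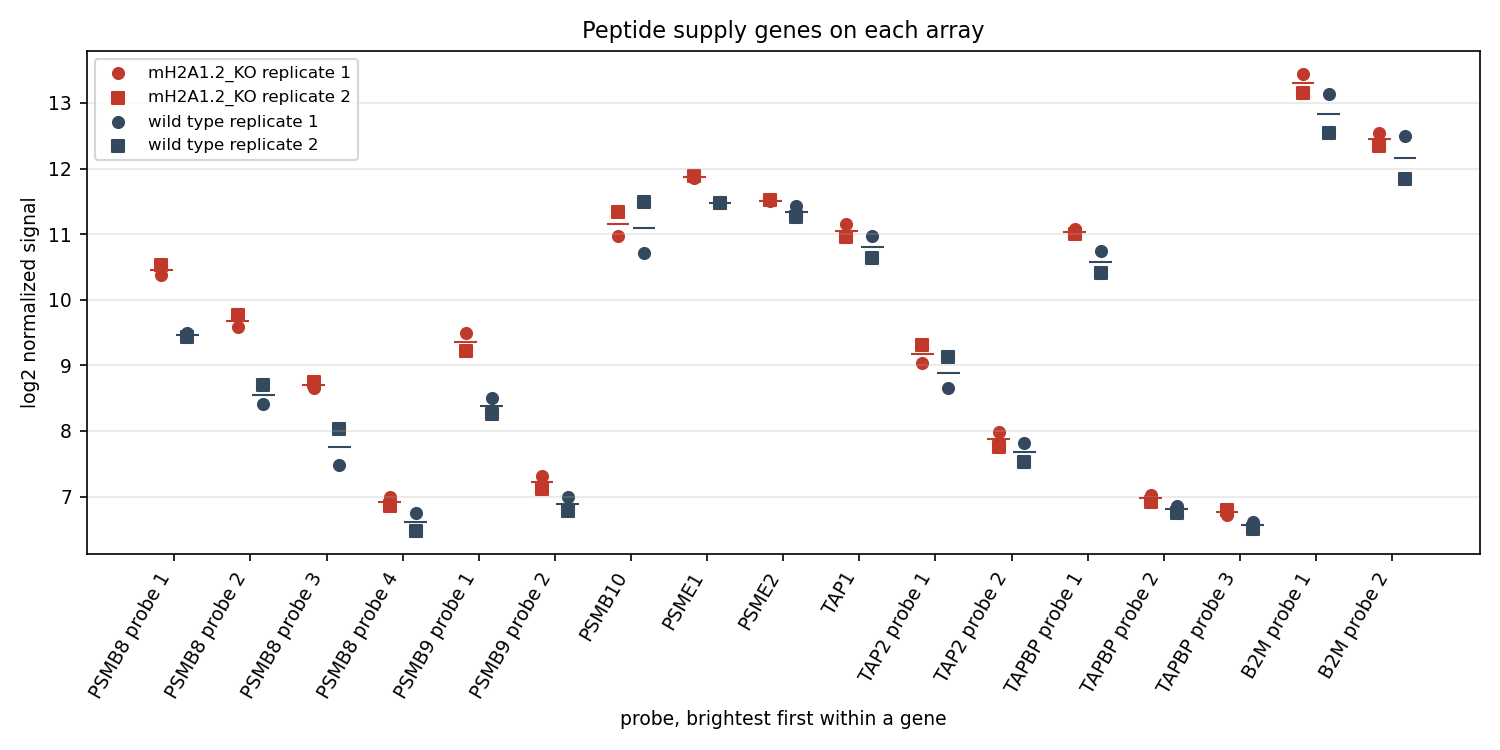
Log2 normalized signal of the 17 detected probes on each array, with mH2A1.2_KO in red on the left of each pair and wild type in dark grey on the right, circles for replicate 1, squares for replicate 2 and short lines for group means. PSMB8 and PSMB9 sit apart between the groups (10.38 and 10.53 against 9.49 and 9.43 for the brightest PSMB8 probe), while the 2 wild type arrays of PSMB10, at 10.71 and 11.48, lie on either side of the mH2A1.2_KO arrays.

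The PA28 cap genes measured higher in mH2A1.2_KO by smaller amounts. PSME1, the alpha subunit, measured 11.85 and 11.88 in mH2A1.2_KO, against 11.49 and 11.48 in wild type. The arrays agreed within each group to a few hundredths, and the difference was 0.39 ± 0.15 or 1.31-fold (limma adjusted p = 0.640). The undetected probe of the set is a second one for PSME1, not above background on the 4 arrays. PSME2, the beta subunit, measured 11.51 and 11.52 in mH2A1.2_KO, against 11.42 and 11.26 in wild type, a difference of 0.17 ± 0.16 (limma adjusted p = 0.935). Neither gene's arrays overlapped. In the undisputed pair, PSME1 differed by 0.40 and PSME2 by 0.091. With neqc and arrays grouped by the raw table's header, PSME2 turned to -0.082 and PSME1 differed by 0.013.

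The transporter genes overlapped between the groups. TAP1 measured 11.15 and 10.95 in mH2A1.2_KO, against 10.98 and 10.63 in wild type, a difference of 0.25 ± 0.19 (limma adjusted p = 0.897). TAP2 was read by 2 probes annotated to different transcripts. The brighter measured 9.03 and 9.31 in mH2A1.2_KO, against 8.66 and 9.12 in wild type, a difference of 0.28 ± 0.22 (limma adjusted p = 0.894). In both groups it was lower on the array of replicate 1, whereas TAP1 and the second TAP2 probe were higher there. The second TAP2 probe measured 7.98 and 7.76 in mH2A1.2_KO, against 7.82 and 7.53 in wild type, a difference of 0.20 ± 0.18. PSMB9, the gene on the other side of their shared intergenic stretch, differed by 0.98 and 0.33 on its 2 probes, and whether TAP1 differs from it in response was not tested. In the undisputed pair the TAP1 difference was -0.026, and the TAP2 probes differed by 0.65 and -0.062.

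TAPBP and B2M each had a brightest probe whose arrays did not overlap. TAPBP measured 11.07 and 11.01 in mH2A1.2_KO, against 10.75 and 10.40 in wild type, a difference of 0.46 ± 0.18 or 1.38-fold (limma adjusted p = 0.636). Its other 2 probes, annotated to other transcripts and close to background, differed by 0.16 ± 0.16 and 0.20 ± 0.16, or by 0.44 and 0.54 with neqc. B2M measured 13.45 and 13.16 in mH2A1.2_KO, against 13.14 and 12.54 in wild type, a difference of 0.46 ± 0.24 (limma adjusted p = 0.775). The lower mH2A1.2_KO array and the higher wild type array of B2M were almost level. On its second probe B2M overlapped, with 12.54 and 12.35 in mH2A1.2_KO, against 12.49 and 11.84 in wild type, a difference of 0.28 ± 0.25. The B2M values depended on the wild type array used. The 2 probes differed by 0.16 and -0.049 without wild type replicate 2, by 0.77 and 0.61 without wild type replicate 1, and by 0.019 and -0.14 in the undisputed pair. The brightest TAPBP probe differed by 0.26 in that pair. With neqc and the grouping from the raw table's header, the leading probes of TAP1, TAPBP and B2M differed by -0.27, -0.21 and -0.45. The leading TAP2 probe differed by 0.42 there.

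**Figure D3:**
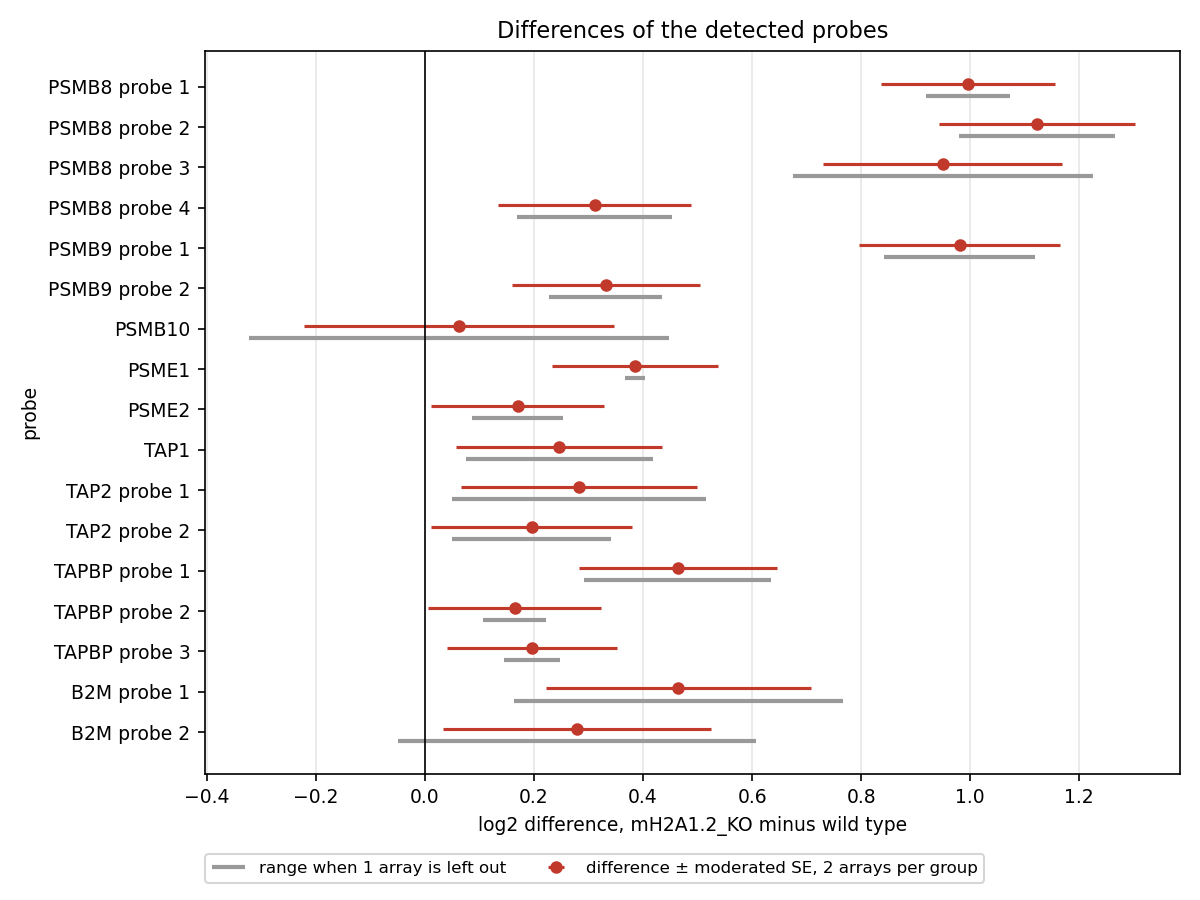
Log2 difference, mH2A1.2_KO minus wild type, of the 17 detected probes, with red points and bars for the value and its moderated SE (2 arrays per group) and grey bars for the range when 1 array is left out. All 17 points lie above 0, from 0.063 for PSMB10 to 1.12 for a PSMB8 probe, and the grey bars of PSMB10 and of the second B2M probe cross 0.

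All 17 detected probes had a higher mean in mH2A1.2_KO than in wild type, where 47.9% of all detected probes did. Arrays did not overlap for 12 of the 17, all of them higher in mH2A1.2_KO, and 17.1% of all detected probes were higher without overlap (18.5% lower, 35.7% in either direction). limma called 0 of the 17 at an adjusted p under 0.05, and called 0% of all detected probes. At an unadjusted p under 0.05 it called 6 of the 17, all higher, where it called 4.36% of all detected probes as higher, 3.2% as lower and 7.56% in either direction. The whole-table count of 1282 behind that share fell with either mH2A1.2_KO array left out and rose with either wild type array left out. The 6 called among the 17 are 3 probes of PSMB8 and 1 each of PSMB9, PSME1 and TAPBP. With 1 brightest probe per gene, the median of the 9 differences was 0.39, and the median of all detected probes was -0.01. That median ran from 0.37 to 0.42 when 1 array was left out and was 0.40 in the undisputed pair. With neqc and arrays grouped by the raw table's header it was -0.082, with 2 of 17 probes higher without overlap.

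The arrays of the constitutive partners of the 3 inducible subunits overlapped between the groups. PSMB5 measured 11.83 and 12.02 in mH2A1.2_KO, against 11.90 and 12.12 in wild type, a difference of -0.084 ± 0.17. PSMB6 differed by -0.054 ± 0.18 and PSMB7 by 0.00073 ± 0.20 (limma adjusted p = 0.989 for PSMB5 and PSMB6). In the undisputed pair the median of the 3 was 0.16. With neqc and arrays grouped by the raw table's header it was 0.22.

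Of 15 tested genes of the other core subunits and assembly factors, 6 were higher and 9 lower, with a median of -0.051, and none passed the test. PSMG4, an assembly chaperone, measured -0.31 ± 0.16 and PSMA6, an alpha ring subunit, 0.28 ± 0.18. Of 15 tested genes of the 19S regulatory particle, which recognizes ubiquitinated proteins, 9 were higher and 6 lower, with a median of 0.015. In the undisputed pair, however, the 19S median was 0.42, as high as the 0.40 of the 9 genes, and that of the other core subunits and assembly factors was 0.20. That pair sets replicate 2 against replicate 1. The median 19S gap, replicate 1 minus replicate 2, was -0.22 in mH2A1.2_KO and -0.50 in wild type. For the 9 genes it was -0.0081 and 0.17. The part of this gap in the pair's medians was not tested. Over all 4 arrays PSMD6 measured 0.37 ± 0.23 and PSMD4, a ubiquitin receptor, -0.18 ± 0.16. The other activators were lower, PSME4 at -0.22 ± 0.16 and PSME3 at -0.047 ± 0.30. None of these genes passed limma's test over all detected probes. Over the 79 tested genes of all 8 related lists the median was 0.0055.

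**Figure D4:**
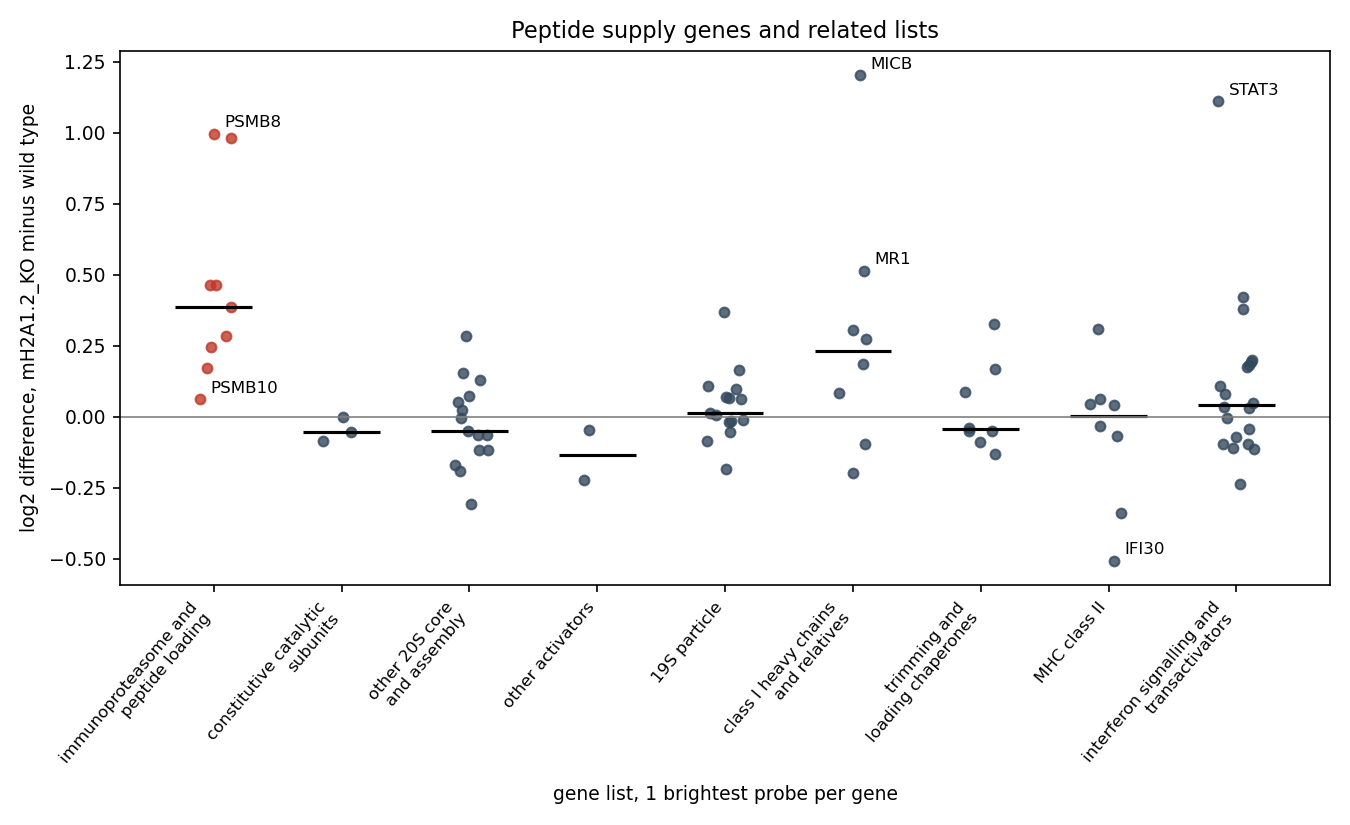
Log2 difference, mH2A1.2_KO minus wild type, of the brightest detected probe of each gene, with 1 column per gene list, the 9 genes in red, the related lists in dark grey and a black line at each median. The median is 0.39 for the 9 genes and -0.054 for the constitutive catalytic subunits, and MICB (1.2) and STAT3 (1.11) lie highest in the related lists.

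Of 8 tested class I heavy chains and their relatives, 6 were higher and 2 lower in mH2A1.2_KO, with a median of 0.23. Without overlap 2 of the 8 were higher and 0 lower, where 17.1% of all detected probes were higher and 18.5% lower. MICB, a stress-induced ligand of the receptor NKG2D that binds no peptide, measured 10.36 and 9.92 in mH2A1.2_KO, against 8.98 and 8.90 in wild type, a difference of 1.2 ± 0.20 or 2.30-fold (limma adjusted p = 0.270). MR1, which presents small metabolites, measured 0.51 ± 0.19. The classical heavy chains HLA-B and HLA-C measured 0.28 ± 0.24 and 0.31 ± 0.23, with arrays that overlapped. HLA-F measured 0.19 ± 0.22, HLA-G 0.083 ± 0.16, MICA -0.098 ± 0.23 and HLA-E -0.20 ± 0.27. Heavy chain genes are close paralogs, so a probe can read more than 1 of them. Leaving out wild type replicate 2 brought the heavy chain median to -0.042, leaving out wild type replicate 1 brought it to 0.49, and in the undisputed pair it was -0.11.

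Of 8 tested genes of peptide trimming and loading, 3 were higher and 5 lower, with a median of -0.044. TAPBPL, a tapasin homolog that edits peptides, measured 0.33 ± 0.16 and NRDC, a peptidase, 0.17 ± 0.21. Of 8 tested class II genes, which serve presentation to helper T cells, 4 were higher and 4 lower, with a median of 0.0036. The class II median became 0.45 without wild type replicate 1, -0.44 without wild type replicate 2 and -0.68 in the undisputed pair. IFI30, a lysosomal thiol reductase, measured -0.51 ± 0.19 and HLA-DMB, part of the class II peptide exchanger, -0.34 ± 0.55.

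Interferon signal transducers and class I transactivators gave 12 higher and 8 lower of 20 tested genes, with a median of 0.041. Without overlap 6 of the 20 were higher and 3 lower, where 17.1% of all detected probes were higher and 18.5% lower. STAT3, a transcription factor downstream of the interleukin 6 receptor family, measured 11.64 and 11.22 in mH2A1.2_KO, against 10.50 and 10.15 in wild type, a difference of 1.11 ± 0.22 (limma adjusted p = 0.331), and its 3 probes ran from 0.88 to 1.23. IRF9, a subunit of the factor that binds the interferon-stimulated response element, measured 0.42 ± 0.20. IRF1, which activates PSMB9 and TAP1 in interferon-treated cells, measured 9.66 and 9.59 in mH2A1.2_KO, against 9.12 and 9.37 in wild type, a difference of 0.38 ± 0.17. NLRC5, a transactivator of class I genes, was not above background. None of these genes passed the test.

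The mean profile of the 9 genes, each centred on its own mean, was 0.22 and 0.23 in mH2A1.2_KO, against -0.20 and -0.25 in wild type. Among 10664 other named genes the 5 closest to it over the 4 arrays were FRMD5, PTGR1, RHOB, SELENOF and ANO9, with root mean square differences of 0.015 to 0.023 on the log2 scale. With 4 arrays such likeness is a description only.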

How the data were processed

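The authors deposited raw intensity and a detection p-value per probe for 47230 probes (per the file headers), and normalized values on a log2 scale for 43893 probes, with the normalization not given in the sources used here. GenomeStudio is named in the submitters' processing notes. The deposited log2 values were quantile-normalized across the 4 arrays, filtered to 16950 detected probes and fitted by lmFit and eBayes of limma 3.58.1 (R 4.3.3) with 2 residual and 4.26 prior degrees of freedom. Tests were two-sided, and p-values of all detected probes were adjusted together by Benjamini and Hochberg's method. Symbols came from the platform annotation, updated through RefSeq gene IDs, and 13837 detected probes were named. A gene in a list was represented by its brightest detected probe. Promoter sequences came from RefSeq (GRCh38.p14).

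Members and lists were chosen with earlier results of these data known. The rule names every detected probe of the 9 genes, PSMB5 to PSMB7, every tested heavy chain, the 2 largest differences of each other list, IRF1, NLRC5 and the 5 closest profiles. MACROH2A1 was named by all its detected probes. The fit was tested on simulated arrays with the real spread over 16950 probes, where it recovered 18% of 50 probes changed by 1 on the log2 scale and 70% of those changed by 2. The same run also held 50 probes changed by 3 and 50 changed by 4, which eases the adjusted threshold for smaller changes. Where large changes are few, recovery of a change of 1 may be lower. Alternatives were no further normalization, neqc (offset 16) under either naming of the arrays, other detection filters, 1 probe per gene, eBayes with trend, a replicate block and leaving out arrays.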

Additional observations from a re-analysis of the deposited data

How the results depend on the processing

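No probe of the 9 genes was called without further normalization, with neqc, under other detection filters, with 1 probe per gene or with eBayes trend, and apart from neqc under the raw header's naming every probe tested there kept its direction. Over the whole table limma called 0 detected probes, 5 with no detection filter, 647 with the replicate block, and between 0 and 211 when 1 array was left out (69 without wild type replicate 1 and 211 without wild type replicate 2). At an unadjusted p under 0.05 it called 1282. That count fell with either mH2A1.2_KO array left out, rose with either wild type array left out, and was 2905 with the replicate block. With neqc that count was 1328, and 2409 (1123 higher, 1286 lower) under the raw header's naming. The labels do not say that the replicate numbers pair the arrays. The replicate 1 minus replicate 2 difference correlated at 0.567 between the groups over all detected probes, which is a hint from the data only. With the replicate block PSMB8 (3 probes) and PSMB9 (1 probe) passed, with adjusted p from 0.0018 to 0.00712. With 1 probe per gene the count higher without overlap was 6 of 9, since fewer probes entered.

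Under neqc with the raw header's naming the median over the 9 genes was -0.082, the count without overlap 2 and the median of the related lists 0.095. There PSMB8's dimmest probe differed by -0.25, PSMB9 by -0.29 and -0.40, PSME2 by -0.082 and TAP1 by -0.27. The second TAP2 probe differed by -0.31, TAPBP by -0.21, -0.064 and -0.26, and B2M by -0.45 and -0.42. The other 6 probes stayed higher in mH2A1.2_KO, among them the brightest TAP2 probe at 0.42 and PSMB10 at 0.59. That grouping sets the arrays of replicate 1 against those of replicate 2 as the normalized columns number them. When 1 array was left out, PSMB10 ran from -0.32 (without wild type replicate 1) to 0.45, with -0.12 without mH2A1.2_KO replicate 2, and the second B2M probe from -0.049 (without wild type replicate 2) to 0.61. In the undisputed pair of arrays TAP1 measured -0.026, a TAP2 probe -0.062 and a B2M probe -0.14, and the median of the related lists was 0.11. When 1 array was left out, that median ran from -0.057 to 0.096, and the median over the 9 genes from 0.37 to 0.42. Dim probes of PSMB8, PSMB9 and TAPBP gave smaller differences than the brightest probe of the same gene, and larger ones with neqc than without it; the cause was not tested.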

Other observations

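Several genes of MHC class II presentation differed more between the 2 wild type arrays than between the group means. HLA-DMB measured 9.38 and 8.72 in mH2A1.2_KO, against 10.27 and 8.50 in wild type. HLA-DMA, its partner in the class II peptide exchanger, measured 10.04 and 9.51 in mH2A1.2_KO, against 10.49 and 9.19 in wild type. CD74, the invariant chain that escorts class II molecules, measured 8.95 and 8.63 in mH2A1.2_KO, against 9.06 and 7.90 in wild type. All 8 tested class II genes were higher on the array of replicate 1 in both groups, where 33.4% of all detected probes were. Wild type replicate 1 exceeded wild type replicate 2 by more than 1 on the log2 scale for 4 of the 8, HLA-DMB, HLA-DMA, HLA-DOB and CD74, where the gap exceeded 1 in either direction for 2.11% of detected probes. These genes were singled out after their values were seen, and no cause was tested.

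The same gap between the wild type arrays stood at 0.60 for B2M and 0.67 for HLA-B, and had the other sign for PSMB10, at -0.77. For PSMB8 and PSME1 the brightest probes differed between the wild type arrays by 0.056 and 0.0097.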
